A study of Mus musculus with 25 samples.

Results

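The transcripts described here encode 9 G-protein coupled receptors measured in ribosome-bound RNA of mouse spinal cord astrocytes. They are Ntsr2, Aplnr, S1pr1, S1pr3, Lpar1, Ednrb, Galr3, Htr5b and Cnr1, out of 12454 genes listed in any of the 4 count tables. The members were named by symbol, chosen with earlier results on these same libraries in view. Ntsr2, Aplnr and Galr3 had been singled out in the WT LPS comparison, so their values there are a description with no test. The values behind the choice of the other members are not recorded, and no p-value below is independent evidence about them.

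All mice carried GfapCre and a floxed Ribotag allele, so that ribosomes in cells with a history of Gfap-driven Cre carried a haemagglutinin tag and could be precipitated with their RNA. WT mice were labelled GfapCre:Ribotagfl/fll, Stat3cKO mice GfapCre:Ribotagfl/fl:Stat3fl/fl (both strain C57BL6) and Smarca4cKO mice GfapCre:Ribotagfl/fl:Smarca4fl/fl (strain C57BL6;129S2), with no age given. The tissue was thoracic spinal cord, 25 libraries in all, each under its own animal number. WT mice gave 4 libraries uninjured and 4 after LPS, Stat3cKO mice 3 and 4, and Smarca4cKO mice 3 uninjured, 3 after LPS and 4 after SCI. LPS was 5 mg/kg of lipopolysaccharide into the peritoneum 24 h before, and SCI a complete crush 14 days before, with the lesion core in the sample. Smarca4cKO goes with its strain, and the crush was done in no other genotype here, so neither can be told apart from the genotype. Deletion follows GfapCre, and whether other cells carried the tag was not tested.

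G-protein coupled receptors are membrane proteins that cross the membrane repeatedly, bind a ligand outside the cell and activate heterotrimeric G proteins inside it. Astrocytes use them to read lipid mediators, peptides and transmitters released by vessels, blood and neurons. S1pr1 and S1pr3 bind sphingosine-1-phosphate, Lpar1 lysophosphatidic acid and Cnr1 endocannabinoids. Ntsr2 is a neurotensin receptor, Aplnr the apelin receptor, Ednrb the endothelin B receptor, Galr3 a galanin receptor and Htr5b a serotonin receptor. In the central nervous system Lpar1 is also known as a gene of oligodendrocytes.

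The coding stretch around the inner end of helix 3, where this receptor class carries the conserved DRY motif that takes part in G-protein activation, shows what the receptors share and where they differ. Each line gives 39 bases of the longest GENCODE M21 coding sequence (GRCm38), 5′ to 3′ on the coding strand, with the 3 motif codons in capitals.
Ntsr2: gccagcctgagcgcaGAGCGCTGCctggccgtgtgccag
Aplnr: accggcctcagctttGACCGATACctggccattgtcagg
S1pr1: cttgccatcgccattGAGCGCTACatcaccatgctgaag
S1pr3: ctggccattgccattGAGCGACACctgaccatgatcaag
Lpar1: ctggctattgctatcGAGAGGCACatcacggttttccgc
Ednrb: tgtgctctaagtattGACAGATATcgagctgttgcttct
Galr3: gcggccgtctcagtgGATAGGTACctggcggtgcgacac
Htr5b: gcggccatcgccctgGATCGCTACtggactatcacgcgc
Cnr1: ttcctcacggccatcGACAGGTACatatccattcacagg
The third codon was TAC or TAT in 6 receptors, CAC in 2 of the 3 lysophospholipid receptors (S1pr3 and Lpar1) and TGC in Ntsr2.

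In GRCm38 the lipid receptor genes lie at chr3:115710433-115715072 on the minus strand (S1pr1), chr13:51408639-51422797 on the plus strand (S1pr3), chr4:58435255-58553898 on the minus strand (Lpar1) and chr4:33924593-33948831 on the plus strand (Cnr1). The peptide receptor genes lie at chr12:16653382-16660227, plus (Ntsr2), chr2:85136225-85139923, plus (Aplnr), chr14:103814625-103844402, minus (Ednrb), and chr15:79041885-79043558, plus (Galr3). Htr5b lies at chr1:121509842-121528465 on the minus strand. Galr3 shares 363 bp of exon with Gcat on the same strand, of 1245 bp of Galr3 exon, and S1pr3 shares 45 bp with Gm32834 on the opposite strand. Counts were per gene over all exons, and no strand setting is given in the sources used here.

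RefSeq promoter windows (GRCm38.p6, 250 bases before to 50 after the start) were held for 5 members, Cnr1, Ednrb, Lpar1, Ntsr2 and S1pr3, in 9 windows. Both strands were searched for a STAT site (TTCNNNGAA), an AP-1 site (TGANTCA) and a cyclic AMP response element (TGACGTCA), which do not overlap here. The STAT letters occur in 8.3% of all 32851 windows, the AP-1 letters in 7.81% and the response element in 1.79%. The single match among the members was a STAT site in the Ntsr2 window, 62 to 54 bases before the RefSeq start, at chr12:16653398-16653426 with its flanks (plus strand), shown because Stat3 is one of the deleted genes.
Ntsr2: gttttggaggTTCCCAGAAaggaggtggt
The capitals mark the match. It is a match of letters and not a measured binding site.

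Library totals ran from 52433934 to 106513035 counts, and levels are counts per 1000000 counts of the library (CPM) on a scale shared by all 25 libraries. The 8 astrocyte markers checked (Aqp4, Aldh1l1, Gja1, Slc1a3, Slc1a2, Gfap, S100b, Sox9) were listed in every table, with summed levels of 29431 to 50192 CPM per library. Oligodendrocyte markers were also present, at 4940 to 12428 CPM outside SCI and 27573 to 37855 CPM after SCI (9 or 10 of 10 markers listed), and no neutrophil marker was listed. Many genes jumped between replicates, from 10 counts or fewer in one library to 100 or more in another of its group, from 1.67% of listed genes in Smarca4cKO SCI to 30.5% in Smarca4cKO uninjured. S1pr3 did so in 4 groups and Lpar1 in Smarca4cKO LPS. The targeted gene Smarca4 was at 12.7 to 21.8 CPM in Smarca4cKO uninjured against 64.0 to 90.3 in WT uninjured, but at 0.0166 to 50.0 CPM in Smarca4cKO LPS. Stat3 was at 8.61 to 21.6 CPM in Stat3cKO uninjured against 101 to 153 in WT uninjured. In the libraries labelled Stat3cKO LPS it was at 92.8 to 322 CPM, overlapping WT LPS at 177 to 516. The exons deleted are not given in the labels, so a count over the whole gene is only a partial check.

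Of the 9 receptors, 6 were listed in all 4 tables (Ntsr2, Aplnr, S1pr1, S1pr3, Lpar1, Ednrb). Htr5b had a row only in the Stat3cKO table, Cnr1 in the WT and Stat3cKO tables, and Galr3 in the WT and Smarca4cKO SCI tables. Where a receptor has no row there is no value, which is not a count of 0. Per kilobase of exon, Ntsr2 was the highest of the 6 in WT uninjured at 715 ± 135 CPM per kb (SD, n = 4), followed by S1pr1 at 286 ± 32.2 and Ednrb at 126 ± 28.2. Aplnr followed at 52.9 ± 14.8, Lpar1 at 23.6 ± 7.58 and S1pr3 at 2.78 ± 2.92 CPM per kb. Ntsr2, S1pr1 and Ednrb held the top 3 places in that order in each group mean.

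The summed level of the 6 receptors per kb was 1206 ± 134 in WT uninjured, 1180 ± 64.3 in Stat3cKO uninjured and 999.7 ± 64.8 in Smarca4cKO uninjured (mean ± SD). It was 641 ± 79.5 in WT LPS, 709 ± 147 in Stat3cKO LPS, 846 ± 183 in Smarca4cKO LPS and 567 ± 20.96 in Smarca4cKO SCI. Within that sum Ntsr2 held 59.0 ± 5.81% in WT uninjured and 58.2 ± 5.88% in WT LPS. After SCI it held 50.5 ± 2.48%, against 63.4 ± 1.16% in Smarca4cKO uninjured. Over the same groups S1pr3 went from 0.172 ± 0.154% to 7.37 ± 2.399% and Lpar1 from 1.03 ± 0.673% to 9.495 ± 2.18%. Ednrb went from 11.2 ± 0.547% to 12.55 ± 0.698% and Aplnr from 2.50 ± 0.505% to 3.62 ± 0.628%. S1pr1 went from 21.67 ± 1.975% to 16.51 ± 3.39%.

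**Figure D1:**
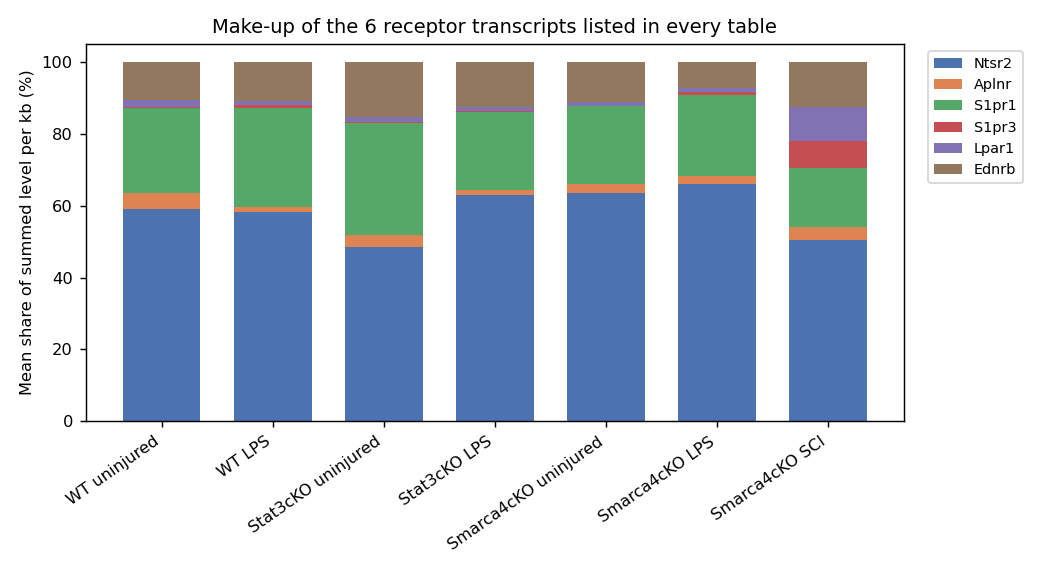
Mean share (%) of each of the 6 receptors listed in every table in their summed level per kb of exon, by group (3 or 4 libraries each). Ntsr2 is the largest part in every group, and the S1pr3 and Lpar1 parts are widest in Smarca4cKO SCI at 7.37% and 9.495%.

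**Figure D2:**
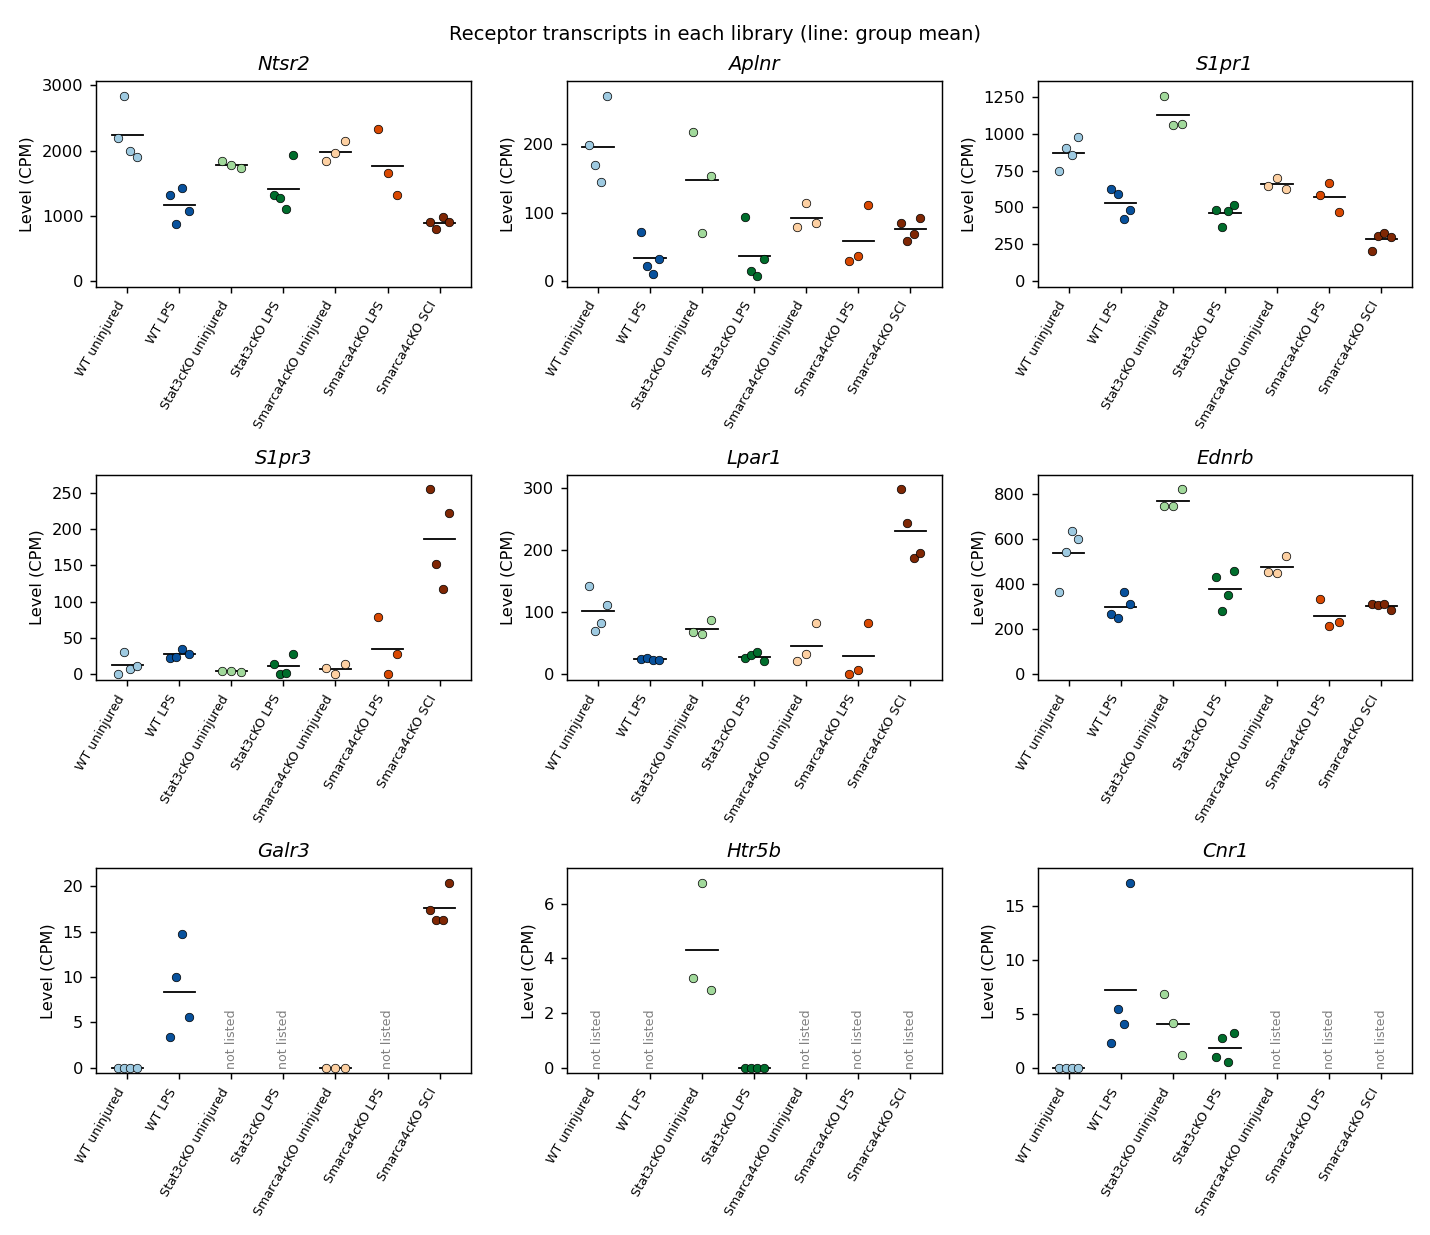
Level (CPM, linear axis) of each receptor in each library, by group; lines are group means and "not listed" marks a group whose table has no row for the gene. Ntsr2, S1pr1 and Ednrb sit lower in WT LPS and Smarca4cKO SCI than in the uninjured group of the genotype, apart from an overlap of Ednrb in WT, while S1pr3 and Lpar1 are highest in Smarca4cKO SCI.

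The WT comparison asked what a systemic LPS injection did to these transcripts in otherwise unmodified astrocytes. Among the members besides Ntsr2, Aplnr and Galr3, the lysophospholipid receptors S1pr1 and Lpar1 and the endothelin receptor Ednrb fell. Cnr1 went from 1 count to between 2.30 and 17.1 CPM, and S1pr3 did not pass the test. Whether WT values entered the choice of these members is not recorded. The threshold was a Benjamini-Hochberg adjusted p under 0.05 in edgeR's quasi-likelihood test over 10566 genes, at which 1.54% of all genes rose and 0.994% fell. Counting Ntsr2, Aplnr and Galr3 as well, 2 of the 8 listed members were past it on the higher side and 5 on the lower; since WT values chose some of them, and Cnr1 and Galr3 could be listed only through the LPS libraries, nothing is read from that count. Where groups are said not to overlap, here and below, the share of all genes that did likewise is not given. Nothing is therefore read from a lack of overlap alone. The samples are bulk, so fewer cells of a type and less RNA per cell cannot be told apart. Of the 8 astrocyte markers 2 fell in the same libraries, Aqp4 (-0.87) and Gja1 (-0.82), as did the fibroblast marker Col1a1 (-2.31), and their part in the receptor changes was not tested.

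Lpar1 was at 142, 69.4, 81.9 and 112 CPM in the 4 WT uninjured libraries and at 24.7, 26.9, 23.9 and 23.1 CPM after LPS. Every LPS library lay below every uninjured one. Lpar1 fell by 2.07 ± 0.28 on the log2 scale (± SE, edgeR adjusted p = 0.00538), and the adjusted p reached 0.0275 at most when any 1 library was left out. In 1 fit of all 25 libraries it was 0.236. The summed oligodendrocyte markers were at 5965 to 10575 CPM uninjured and 5659 to 11961 CPM after LPS, and 0 of their 10 members passed the edgeR test. Summed progenitor markers (4 of 5 listed) were at 188 to 314 CPM uninjured and 69.7 to 220.5 CPM after LPS. The part of these cells in the Lpar1 change was not tested.

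S1pr1, the most abundant of the lipid receptors, was at 745, 906, 855 and 978 CPM uninjured and at 626, 592, 423 and 486 CPM after LPS. The groups did not overlap. It fell by 0.75 ± 0.18 (edgeR adjusted p = 0.0485), a call that no fit without 1 library kept. Adjusted p was 0.0644, 0.113, 0.0843 and 0.12 without LPS libraries 1 to 4, and 0.0633, 0.0877, 0.127 and 0.125 without uninjured libraries 1 to 4. With relative log expression factors it was 0.0509, and with library totals only 0.0903.

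S1pr3 was at 0.0189, 30.5, 7.29 and 11.8 CPM uninjured, the first value being a single count, and at 22.7, 24.3, 35.4 and 28.1 CPM after LPS. One uninjured library lay among the LPS libraries. Its log2 change was 1.12 ± 1.06 (edgeR adjusted p = 0.749).

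Cnr1 was at 0, 0.0121, 0 and 0 CPM in the uninjured libraries, a total of 1 count, and at 2.30, 5.47, 4.05 and 17.1 CPM after LPS. All 4 LPS libraries were above all uninjured ones, and LPS library 4 held most of the reads. The ratio of summed counts was 2266, with a 95% exact counting interval of 406.4 to 89554 that covers counting error only. Cnr1 could be listed in WT only through the LPS libraries, so no test is given for it.

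Ednrb, which in astrocytes responds to endothelins from vessels and injured tissue, was at 365, 545, 635 and 600.4 CPM uninjured and at 266, 249, 367 and 311 CPM after LPS. The lowest uninjured library lay just below the highest LPS library. It fell by 0.88 ± 0.21 (edgeR adjusted p = 0.0494), and kept the call only without LPS library 3 or uninjured library 1. Adjusted p was 0.124, 0.159 and 0.106 without LPS libraries 1, 2 and 4, and 0.0906, 0.157 and 0.126 without uninjured libraries 2, 3 and 4. With relative log expression factors it was 0.0546, and with library totals only 0.0822.

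Ntsr2, Aplnr and Galr3 in WT are given as they were measured. Ntsr2 was at 2185, 2839, 1993 and 1908 CPM uninjured and at 1315, 879, 1420 and 1077 CPM after LPS, a log2 difference of -0.96 ± 0.19. Aplnr was at 199, 169, 144 and 270.4 CPM uninjured and at 71.2, 22.1, 9.49 and 31.4 CPM after LPS, a log2 difference of -2.57 ± 0.49. Neither receptor's groups overlapped. Galr3 had 0 counts in all 4 uninjured libraries and 211, 704, 1018 and 613 counts after LPS (3.37 to 14.7 CPM), at least 715.6-fold higher against 3 counts over the summed uninjured total. Gcat, which shares exon with Galr3, was at 52.4 ± 15.6 CPM uninjured and 54.6 ± 4.85 CPM after LPS (edgeR adjusted p = 0.988).

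**Figure D3:**
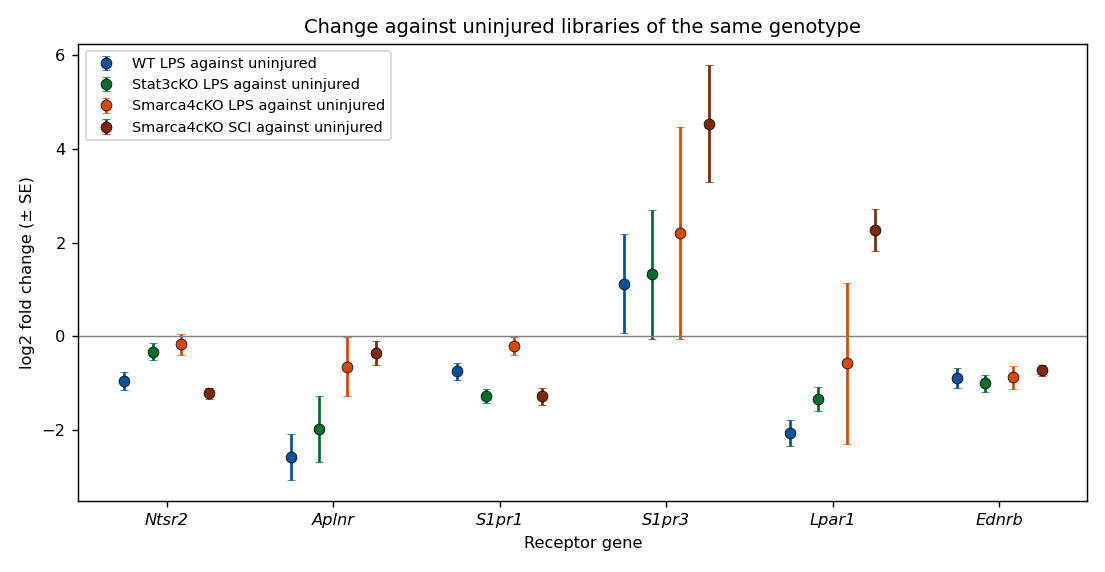
Log2 fold change (± SE) against uninjured libraries of the same genotype for the 6 receptors listed in every table (3 or 4 libraries a group). Ednrb lies between -1.003 and -0.73 in all 4 comparisons, while Lpar1 runs from -2.07 in WT LPS to 2.27 in Smarca4cKO SCI; the LPS and SCI points of Smarca4cKO share their uninjured libraries.

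In the libraries labelled Stat3cKO the same LPS dose was compared with uninjured mice of that genotype. S1pr1, Lpar1 and Ednrb fell, Htr5b went from low counts to 0, and no listed member rose. Of 8 members tested, 4 passed on the lower side, beside 3.44% of 11709 genes, and 0 on the higher side, beside 7.12%. The median log2 change of the 8 was -1.19, against -0.0098 over all genes tested. Htr5b enters both the 4 and the median. It was listed only through the uninjured libraries, so nothing is read from that count. The lower calls besides Htr5b were S1pr1, Lpar1 and Ednrb. Markers of other cells moved too, and their part in these changes was not tested: 3 of 9 tested neuron markers rose (summed 275 to 324 CPM uninjured, 496 to 574 after LPS), 2 of 10 oligodendrocyte markers rose (summed 5677 to 7379 and 9467 to 12428 CPM) and 2 of 5 progenitor markers fell. The monocyte gene Cd68 rose by 8.65 in log2 units, from close to 0, and nothing is read from its call. The fibroblast marker Col1a2 fell (-0.69), and of 8 astrocyte markers Gfap (0.97) and S100b (0.83) rose while Aqp4 (-1.28) and Gja1 (-1.20) fell.

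S1pr1 was at 1259, 1059 and 1070 CPM in the 3 uninjured libraries and at 481, 369.6, 475 and 515 CPM after LPS. The groups were far apart. It fell by 1.28 ± 0.15 (edgeR adjusted p = 0.000436, and 0.0044 at most without 1 library). Lpar1 was at 68.4, 64.4 and 88.0 CPM uninjured and at 26.4, 30.6, 36.3 and 21.6 CPM after LPS. Its groups did not overlap either. Summed oligodendrocyte markers were higher after LPS, and their part in the Lpar1 change was not tested. Lpar1 fell by 1.34 ± 0.25 (edgeR adjusted p = 0.00753, or 0.0542 without uninjured library 3, and 0.523 in 1 fit of all 25 libraries).

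Ednrb was at 745, 747 and 821 CPM uninjured and at 430.4, 279.8, 353 and 460 CPM after LPS, with no overlap. It fell by 1.00 ± 0.18 (edgeR adjusted p = 0.00573, and 0.0377 at most without 1 library). Ntsr2 was at 1833, 1776 and 1734 CPM uninjured and at 1311, 1273, 1099 and 1929 CPM after LPS. Library 4 lay above all uninjured libraries, and the log2 change was -0.33 ± 0.18 (edgeR adjusted p = 0.296, or 0.0238 without library 4). Aplnr was at 218, 70.3 and 153 CPM uninjured and at 93.1, 14.8, 7.71 and 31.8 CPM after LPS. LPS library 1 overlapped the uninjured range, and the log2 change was -1.98 ± 0.70 (edgeR adjusted p = 0.107, or 0.0151 without that library). The authors' deposited table gives Aplnr here a log2 change of -1.98 and a false discovery rate of 0.0112.

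S1pr3 was at 5.19, 4.84 and 3.71 CPM uninjured and at 14.1, 0.0293, 2.51 and 28.6 CPM after LPS, from 2 counts in 1 library to 2134 in another. The log2 change was 1.32 ± 1.38 (edgeR adjusted p = 0.634). Cnr1 was at 6.84, 4.18 and 1.16 CPM uninjured and at 0.969, 2.73, 0.524 and 3.21 CPM after LPS, and the groups overlapped (log2 change -1.11 ± 1.23, edgeR adjusted p = 0.661). Htr5b, which couples serotonin to inhibitory G proteins, had 248, 422 and 246 counts uninjured (3.30, 6.76 and 2.86 CPM) and 0 in all 4 LPS libraries. It was at least 372.5-fold lower, taking 3 counts over the summed LPS total. Htr5b could be listed only through the uninjured libraries, so no test is given for it.

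In Smarca4cKO mice given LPS no member passed the test, in a comparison where 0.0249% of 8040 genes did (2 genes, with 468 at an unadjusted p under 0.05). Of 6 members tested with edgeR, 1 (Ednrb) had an unadjusted p under 0.05. Ednrb was at 455, 451 and 525 CPM uninjured and at 336, 214 and 233 CPM after LPS. The groups did not overlap, and the log2 change was -0.88 ± 0.25 (edgeR adjusted p = 0.32). DESeq2 gave it an adjusted p of 0.0166, and a fit of all 25 libraries 0.0177.

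The other lipid receptors varied strongly between replicates here. Lpar1 was at 21.9, 32.3 and 82.2 CPM uninjured and at 0.0830, 7.94 and 82.8 CPM after LPS, the lowest being 5 counts (log2 change -0.58 ± 1.72, edgeR adjusted p = 0.998). S1pr3 was at 8.84, 0.0935 and 14.3 CPM uninjured and at 78.5, 0.0409 and 27.8 CPM after LPS (2.20 ± 2.26, edgeR adjusted p = 0.998). In LPS libraries 1 and 2, 11.7% and 14.4% of the genes listed in all 4 tables had 10 counts or fewer, against 0.906% in library 3; library 3 also held the most Lpar1 and Aplnr. The part of this difference between libraries in the receptor values was not tested.

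S1pr1 was at 645, 700.5 and 629 CPM uninjured and at 582, 668 and 468 CPM after LPS (log2 change -0.21 ± 0.19). Ntsr2 was at 1834, 1957 and 2150 CPM uninjured and at 2335, 1654 and 1311 CPM after LPS (-0.17 ± 0.23). Aplnr was at 78.3, 114 and 84.5 CPM uninjured and at 29.5, 36.0 and 111 CPM after LPS (-0.65 ± 0.63). For these 3 genes the groups overlapped and the edgeR adjusted p was 0.998.

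At 14 days after the crush, in Smarca4cKO, the receptors split by direction. Ntsr2, S1pr1 and Ednrb fell, S1pr3 and Lpar1 rose, Galr3 went from 0 to 16.3 to 20.4 CPM, and Aplnr did not pass. Of 7 members tested 3 passed on each side, beside 10.1% of 11109 genes higher and 4.31% lower. Galr3, among the higher, was listed only through the SCI libraries, so nothing is read from the count on that side. The higher calls besides Galr3 were S1pr3 and Lpar1. In 1 fit of all 25 libraries, over the genes in all 4 tables, 345 genes were higher and 423 lower, against 1127 and 479 here. The median log2 change was -0.36 over the 7 members and 0.067 over all genes. Markers of other cells were higher in the same libraries: 5 of 10 oligodendrocyte, 2 of 5 progenitor, 4 of 6 Schwann cell, 2 of 5 tested pericyte, 2 of 3 tested endothelial, 2 of 6 fibroblast, 2 of 4 tested ependymal, 2 of 3 tested monocyte and 1 of 5 tested microglial markers rose. Mbp is on both the oligodendrocyte and the Schwann cell list. Summed endothelial markers overlapped between the groups, at 0 to 12.9 CPM uninjured and 8.82 to 25.7 CPM after SCI. Summed microglial markers overlapped too, at 35.8 to 291 CPM uninjured and 128.7 to 369.9 CPM after SCI. The neuron marker Nefm fell (-1.46). Bmp4, Aif1, Emr1, Lum and Dynlrb2 were at 0 in all uninjured Smarca4cKO libraries. They were listed there only through the SCI libraries, so nothing is read from their calls. The markers Cdh5, Vwf, Kcnj8, Acta2 and Rarres2 rose by 9.70 to 11.44 in log2 units, from close to 0. Nothing is read from those calls either. The part of other cells in the receptor changes was not tested. Astrocyte markers summed to 30759 to 34821 CPM uninjured and 30476 to 40083 CPM after SCI, with Gfap higher and Gja1, Slc1a3 and Slc1a2 lower.

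S1pr3, at 0.0935 to 14.3 CPM in the 3 uninjured libraries, was at 255, 152, 118 and 222 CPM in the 4 SCI libraries. Every SCI library was above every other library of the series. It rose by 4.54 ± 1.25 (edgeR adjusted p = 0.0476), where the uninjured library with 7 counts weighs on the fit. The call was kept without that library (0.00441). It was lost without uninjured library 1 (0.102) or 3 (0.0589), or without SCI library 1 (0.113), 2 (0.0952), 3 (0.084) or 4 (0.108), and in 1 fit of all 25 libraries (0.129).

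S1pr1 went the other way, from 629 to 700.5 CPM uninjured to 202, 307, 328 and 301 CPM after SCI. It fell by 1.28 ± 0.19 (edgeR adjusted p = 0.00652, and 0.0231 at most without 1 library). Both proteins bind the same lipid, but S1pr1 is known to couple to Gi alone while S1pr3 also uses Gq and G12/13. Per kb of exon, S1pr3 made up 0.822 ± 0.765% of S1pr1 plus S1pr3 in Smarca4cKO uninjured and 31.2 ± 11.5% after SCI, with a lowest SCI library of 19.7%. In the other groups the highest library reached 8.42% (Smarca4cKO LPS). This share was formed after the values were seen and carries no test.

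**Figure D4:**
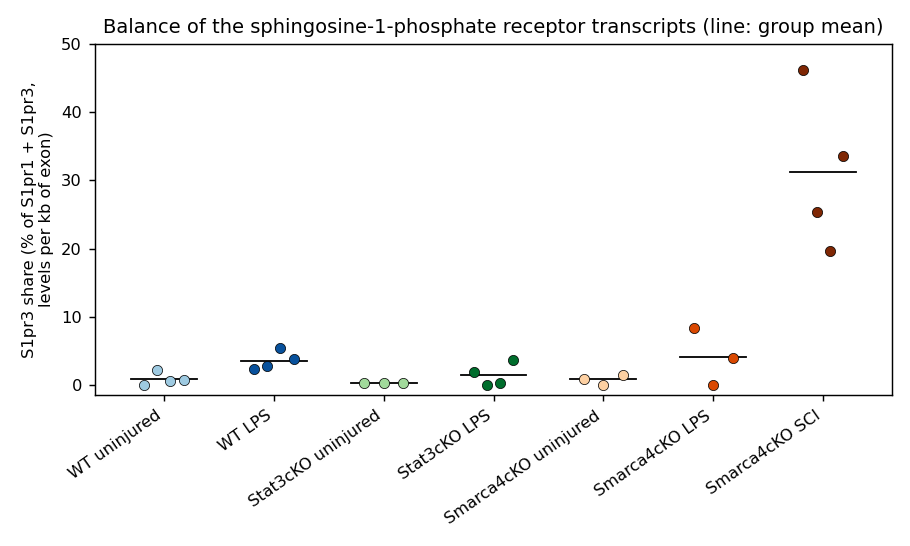
Share (%) of S1pr3 in the summed S1pr1 and S1pr3 levels per kb of exon, by library and group; lines are group means. The 4 Smarca4cKO SCI libraries lie between 19.7% and 46.2%, and every other library at 8.42% or less.

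Lpar1 was at 297, 243, 187 and 195 CPM after SCI, against 21.9 to 82.2 CPM uninjured, with no overlap. It rose by 2.27 ± 0.46 (edgeR adjusted p = 0.0109, and 0.0356 at most without 1 library). Leaving out the library with the most low-count genes in both groups at once (SCI 1 and uninjured 2), a check added after the data were seen, gave 0.0925, and 1 fit of all 25 libraries 0.124. The oligodendrocyte markers moved with it, from 6265 to 11852 CPM summed uninjured to 27573 to 37855 CPM after SCI. How much of the Lpar1 RNA came from oligodendrocytes was not tested.

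**Figure D5:**
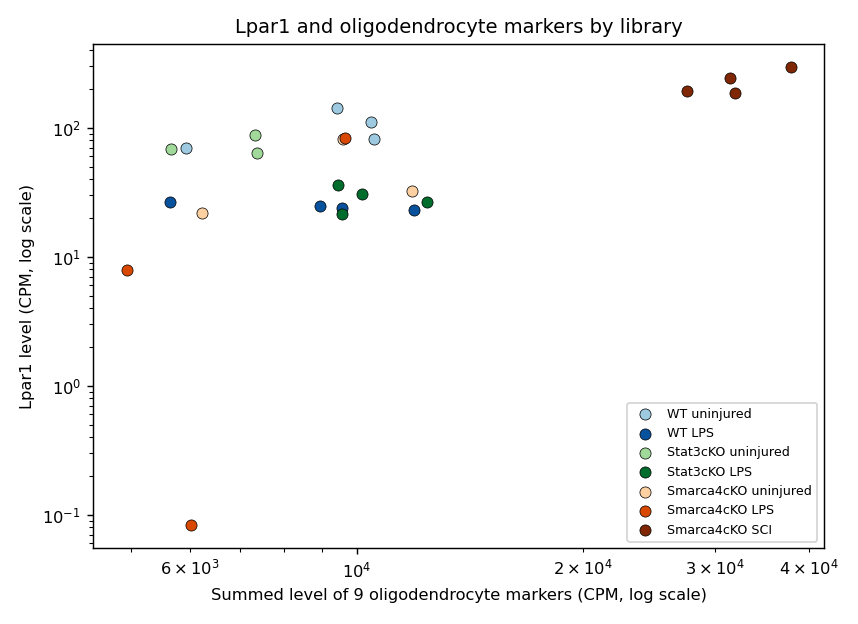
Lpar1 level (CPM) against the summed level of the 9 oligodendrocyte markers listed in all 4 tables (CPM), both on log axes, one point per library. The SCI libraries are high on both axes (27522 to 37795 CPM on the horizontal axis), whereas WT uninjured and WT LPS libraries span a like range of markers at different Lpar1 levels.

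Ntsr2 was at 898, 801, 978 and 898 CPM after SCI, all below the lowest uninjured value of 1834 CPM. It fell by 1.22 ± 0.13 (edgeR adjusted p = 0.00226, and 0.0141 at most without 1 library). Ednrb was at 310.1, 306, 311 and 286 CPM after SCI, below 451 to 525 CPM uninjured. It fell by 0.73 ± 0.11 (edgeR adjusted p = 0.00652, and 0.0232 at most without 1 library). Aplnr was at 85.1, 59.1, 69.3 and 91.4 CPM, within reach of 78.3 to 114 CPM uninjured (log2 change -0.36 ± 0.26, edgeR adjusted p = 0.564).

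Galr3 had 0 counts in the 3 uninjured libraries and 1947, 1227, 1435 and 1520 counts after SCI (17.4, 16.3, 16.3 and 20.4 CPM), at least 1439-fold higher. Galr3 could be listed there only through the SCI libraries, so no test is given for it. Gcat, with which it shares exon, was at 36.6 ± 21.7 CPM uninjured and 28.7 ± 2.36 CPM after SCI (edgeR adjusted p = 0.827).

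The responses were then compared with each other as interaction terms. Between Stat3cKO and WT LPS responses, 1 of 7 members was past the threshold, beside 0.377% of 10341 genes, and nothing is read from that count. The member was Cnr1, higher after LPS in WT and without a call in Stat3cKO, where it was already at 1.16 to 6.84 CPM uninjured. The fitted difference was -11.51 ± 2.10, a size that depends on the single WT uninjured count. Cnr1 was listed in WT only through the LPS libraries, so no test is given for it. The call was also lost without WT LPS library 4, Stat3cKO LPS library 1 or Stat3cKO uninjured library 1. DESeq2 called 0 members, with no adjusted p for Cnr1 and S1pr3. S1pr1 differed by -0.56 ± 0.23 (edgeR adjusted p = 0.438). The Ntsr2 difference of 0.61 ± 0.28 and the Aplnr difference of 0.57 ± 0.91 subtract the WT values on which both genes were chosen, and are descriptions with no test.

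Between Smarca4cKO and WT LPS responses 0 of 6 members differed with edgeR, beside 0.316% of 7919 genes, and 0 with DESeq2. The Ntsr2 (0.74 ± 0.30) and Aplnr (1.88 ± 0.82) differences again contain the WT values that chose these genes, so they are descriptions with no test. Of the other 4 members, 0 had an unadjusted p under 0.05, beside 376 of the 7919 genes. The S1pr1 difference was 0.49 ± 0.25 and the Ednrb difference -0.04 ± 0.31. A missed threshold does not show that the responses were alike.

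SCI and LPS in Smarca4cKO share their uninjured libraries, so the difference of the responses is SCI against LPS. It passed for 2 of 6 members, beside 3.78% of 7969 genes. Ntsr2 was lower after SCI by 0.98 ± 0.18 in log2 units (edgeR adjusted p = 0.0145; 0.0533 without SCI library 2 and 0.0513 without SCI library 4). S1pr1 was lower by 1.01 ± 0.19 (edgeR adjusted p = 0.0168; 0.057 without LPS library 2). For both receptors all 4 SCI libraries lay below all 3 LPS libraries. Without the library of lowest detection in each group, neither passed (0.127 and 0.0896). S1pr3 (2.39 ± 1.61) and Lpar1 (2.92 ± 1.37) had groups that did not overlap but edgeR adjusted p of 0.703 and 0.418, and Lpar1 reached 0.041 without LPS library 3.

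The uninjured WT libraries also entered the comparison that chose Ntsr2, Aplnr and Galr3, so these genes' differences from them are descriptions. Before any challenge, Stat3cKO and WT levels did not differ past the threshold for any of 7 members with edgeR, beside 0.0777% of 10301 genes. Of the members besides Ntsr2, Aplnr and Galr3, 3 (S1pr1, Ednrb, Cnr1) had an unadjusted p under 0.05, beside 690 of the 10301 genes. The values behind their choice are not recorded, so nothing is read from this count. Cnr1 was listed in WT only through the LPS libraries, so nothing is read from its p. DESeq2 called 0, with no adjusted p for S1pr3 and Cnr1. S1pr1 (log2 difference 0.38 ± 0.13) and Ednrb (0.52 ± 0.18) were higher in each Stat3cKO library than in any WT library. For both the edgeR adjusted p was 0.603, and the share of all genes that separated likewise is not given. Ntsr2 was lower (-0.32 ± 0.14). Cnr1 was at 1.16 to 6.84 CPM in Stat3cKO and at 1 count in all WT libraries together, a ratio of 1030 (95% exact counting interval 184.3 to 40715), with an edgeR adjusted p of 0.479.

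Smarca4cKO and WT uninjured levels also gave 0 calls among 6 members with edgeR, beside 0.0102% of 9838 genes. Of the members besides Ntsr2 and Aplnr, 2 (S1pr1, Lpar1) had an unadjusted p under 0.05, beside 945 of the 9838 genes. The values behind their choice are not recorded, so nothing is read from this count. DESeq2 called 0 of the members besides Ntsr2 and Aplnr. Aplnr was lower in every Smarca4cKO library than in any WT library (92.2 ± 19.0 against 196 ± 54.6 CPM, a log2 difference of -1.05 ± 0.27), given with no test. S1pr1 was also lower without overlap (658 ± 37.8 against 871 ± 98.0 CPM, -0.37 ± 0.15, edgeR adjusted p = 0.429).

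Ordered by mean level over the 7 groups, Ntsr2, Aplnr, S1pr1 and Ednrb were highest in an uninjured group and S1pr3, Lpar1 and Galr3 in Smarca4cKO SCI. S1pr1 ran from 1129 ± 113 CPM in Stat3cKO uninjured through 871 ± 98.0 in WT uninjured to 284.5 ± 56.1 in Smarca4cKO SCI, and both of those upper steps and the last one were without overlap. The steps between Smarca4cKO uninjured, Smarca4cKO LPS, WT LPS and Stat3cKO LPS all overlapped. For Aplnr every neighbouring pair overlapped, from 196 ± 54.6 CPM in WT uninjured to 33.5 ± 26.7 in WT LPS. Lpar1 and S1pr3 separated only at the top, where SCI (230.4 ± 51.1 and 187 ± 62.8 CPM) stood clear of WT uninjured (101 ± 32.5) and Smarca4cKO LPS (35.4 ± 39.8).

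The genes most like each receptor over the 25 libraries were taken as those with the smallest root-mean-square difference of centred log2(CPM + 1), among 7830 genes. S1pr1 lay closest to Gja1 (0.201), Pygb (0.252) and Slc6a9 (0.263), against its own spread of 0.633. Ednrb lay closest to Fads2 (0.195), Sfxn5 (0.272) and Jam2 (0.288), with a spread of 0.541. Ntsr2 lay closest to Tmx2 (0.233), Pla2g7 (0.261) and Cyc1 (0.263), with a spread of 0.496. The others had looser neighbours: Aplnr had Padi2 (0.73), Sirpa (0.773) and Tagln3 (0.801), and Lpar1 had Parvb (0.788), Tppp (0.82) and Pllp (0.83). S1pr3 had Wnt5b (1.501), Sbno2 (1.58) and a gene whose symbol the tables give as a date (1.63).

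Genes around the receptors were followed in 5 lists, written with earlier results of these data known. In Smarca4cKO LPS, where no list gene passed with edgeR, 0.0249% of all tested genes did. A list gene at 2 counts or fewer in a group was listed only through the other group, and its count among those that rose supports nothing. Among 14 relatives of the receptors, few were listed. Of all tested genes 10.1% rose and 4.31% fell in SCI, and 2.54% passed in WT LPS and 10.6% in Stat3cKO LPS. In SCI 2 of 5 tested rose and 0 fell, S1pr2 (0 to 22.8, 15.3, 14.5 and 23.6 CPM, at least 1585-fold higher) and Lpar3 (0 to between 0.952 and 15.3 CPM, at least 425.1-fold higher). None of 3, 6 and 2 tested passed in WT, Stat3cKO and Smarca4cKO LPS with edgeR.

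Of 26 ligands and ligand enzymes, 0 rose and 2 of 15 tested fell in WT LPS (median log2 change -0.39), beside 1.54% and 0.994% of all genes. They were Sgpp1, a sphingosine-1-phosphate phosphatase (81.3 ± 23.6 to 38.1 ± 3.91 CPM), and Mgll, which breaks down the endocannabinoid 2-arachidonoylglycerol (221 ± 56.4 to 110.4 ± 26.5 CPM). Leaving out 1 library ended the Sgpp1 call in 8 of 8 fits and the Mgll call in 6 of 8. In Stat3cKO LPS 2 rose and 2 fell of 20 (median -0.19), beside 7.12% and 3.44% of all genes. Sphk1, which makes sphingosine-1-phosphate, went from 2 counts in all to 5.90 to 72.2 CPM, a ratio of 3303 (95% exact counting interval 914 to 27276), and its exporter Spns2 from 3.99 ± 3.64 to 67.0 ± 23.7 CPM. The Spns2 call was lost in 1 fit of all 25 libraries (log2 change 4.07, edgeR adjusted p = 0.173), as were the Dagla (0.0952) and Abhd6 (0.265) calls. Dagla, which makes 2-arachidonoylglycerol, fell from 77.3 ± 10.3 to 29.0 ± 10.3 CPM and Abhd6, another of its hydrolases, from 140 ± 8.20 to 77.5 ± 15.5 CPM, calls that 1 and 5 of 7 fits without 1 library did not keep. In SCI 3 rose and 3 fell of 17 (median 0.27), beside 10.1% and 4.31% of all genes. Apln, the ligand of Aplnr, fell from 425, 382 and 516 CPM to 68.6, 70.0, 122 and 82.6 CPM (-2.43 ± 0.24, edgeR adjusted p = 0.00203), and Abhd6 from 147 ± 43.2 to 49.1 ± 14.0 CPM. Sgpl1, the sphingosine-1-phosphate lyase, rose from 55.9 ± 4.06 to 126 ± 15.7 CPM, and Faah, which hydrolyses anandamide, from 2 counts in all to 18.9 to 48.1 CPM, a ratio of 3773 (95% exact counting interval 1044 to 31161). In Smarca4cKO LPS 0 of 14 passed with edgeR.

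Of 71 other receptors known from astrocytes, 1 of 45 tested rose and 1 fell in WT LPS (median -0.09), beside 1.54% and 0.994% of all genes. They were Adora1, the adenosine A1 receptor (320.5 ± 39.0 to 576 ± 67.1 CPM), and Adcyap1r1, the PACAP receptor (759 ± 47.3 to 345 ± 107 CPM). Leaving out 1 library ended these calls in 7 and 5 of 8 fits. In Stat3cKO LPS 2 rose and 10 fell of 47 (median -0.50), beside 7.12% and 3.44% of all genes. Adcyap1r1 fell from 810.0 ± 19.2 to 245 ± 57.7 CPM and the adrenergic receptor Adra2a from 221 ± 44.9 to 66.0 ± 44.7 CPM. C3ar1, the C3a receptor, went from 0 to 2.12 to 4.85 CPM, and Gpr146 rose from 165 ± 23.0 to 278 ± 66.3 CPM. Of 7 fits without 1 library, 5 did not keep the Adra2a call, 6 the Gpr146 call and 1 the C3ar1 call. In SCI 1 rose and 7 fell of 43 (median -0.57), beside 10.1% and 4.31% of all genes. The Wnt receptor Fzd1 fell from 191 ± 41.0 to 49.2 ± 5.16 CPM, the adenosine receptor Adora2b from 109 ± 30.3 to 39.7 ± 14.5 CPM (not kept in 2 of 7 such fits), and C3ar1, also a gene of myeloid cells, went from 0 to 7.56 to 15.9 CPM. None of 37 passed in Smarca4cKO LPS with edgeR.

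Of 24 G-protein subunits, 1 of 22 tested rose in WT LPS, where 2.54% of all genes passed in either direction. In Stat3cKO LPS 2 rose and 2 fell of 23, beside 10.6% of all genes, and in SCI 1 rose and 1 fell of 23, beside 14.5%. In Smarca4cKO LPS 0 of 22 passed with edgeR. Gng12 rose in WT (93.2 ± 18.6 to 182 ± 28.3 CPM, a call that no fit without 1 library kept) and in Stat3cKO (116 ± 14.8 to 216.5 ± 19.5 CPM). Gna13 rose in Stat3cKO from 309 ± 12.8 to 760.1 ± 112 CPM. The inhibitory subunit Gnai2 fell there from 1616 ± 80.2 to 952 ± 108 CPM and Gnb5 from 83.8 ± 11.5 to 27.7 ± 6.75 CPM. In SCI Gnao1 rose from 321 ± 69.55 to 581 ± 49.5 CPM and Gnas, the stimulatory subunit, fell from 1527 ± 230 to 1140 ± 95.5 CPM, calls that 1 and 5 of 7 fits without 1 library did not keep.

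Of 25 genes that switch receptors off, 0 of 16 passed in WT LPS, 1 of 14 in Stat3cKO LPS, 0 of 9 in Smarca4cKO LPS and 5 of 18 in SCI with edgeR. Over all genes the shares past the threshold were 2.54%, 10.6%, 0.0249% and 14.5% in the same order. The 3 that rose in SCI (Grk4, Rgs4, Rgs16) were at 0.0134 CPM or less in every uninjured library. They were listed there only through the SCI libraries, so nothing is read from the count of 5. Rgs17 rose in Stat3cKO from 3.38 ± 2.41 to 24.4 ± 8.79 CPM, not kept in 2 of 7 fits without 1 library or in 1 fit of all 25 libraries (edgeR adjusted p = 0.185). In SCI the arrestin Arrb1 fell from 291 ± 35.9 to 167 ± 21.3 CPM and the receptor kinase Adrbk2 from 48.7 ± 6.77 to 14.8 ± 2.72 CPM, the latter not kept in 5 of 7 such fits. Rgs4 went from 2 counts in all to 7.80 to 17.1 CPM and the kinase Grk4 from 0 to 1.25 to 14.9 CPM.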

How the data were processed

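Ribosome-bound RNA was sequenced as paired 50 bp reads from 10 ng of RNA, per the labels' protocols. STAR 2.4.0j, HTSeq 0.6.0, edgeR 3.28.0 and mm10 appear in the submitters' processing notes, with no role given. The authors deposited 4 tables with raw counts per gene and library, a log2 fold change and a false discovery rate (adjusted p-value). A rule not given in the sources used here limited the genes listed. Shared uninjured Smarca4cKO libraries were identical in both their tables.

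Raw counts were tested with edgeR 4.0.16 in R 4.3.3 (TMM, filterByExpr, quasi-likelihood test, two-sided, Benjamini-Hochberg over all tested genes). Single comparisons used their own libraries, interactions the groups concerned. SE is the absolute log2 change over the root of F. CPM used the 7834 genes in all 4 tables, with a TMM factor over 25 libraries; lengths are GENCODE M21 exon unions. A group at 0 was set to 3 counts over its summed total; intervals and floors cover counting error only. The tests were also run on simulated counts in which the scatter between replicates was capped. That run does not cover genes that jump between replicates, as many did here, and nothing is read from it.

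The members and lists were chosen with earlier results of these data known. Named genes are all members, from each list and challenge the 2 largest rises and falls past the threshold, and the 3 nearest genes. Markers at or close to 0 and Rgs16 were named as well. Nothing but animal numbers says that samples are separate animals; p-values measure the spread between them. Alternatives were relative log expression factors, totals only, DESeq2 1.42.0, no filter, all 25 libraries, leaving out each library and, added later, the lowest-detection library of each group.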

Additional observations from a re-analysis of the deposited data

Results flagged for a closer look

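The following results stood out. Cnr1 in WT uninjured had 1 library at 0.0121 CPM, a single count, and was marked by Dixon's test. With the other 3 libraries tied at 0, any count in that library would be marked, so nothing is read from it. The LPS response of Cnr1 differed between Stat3cKO and WT by -11.51 on the log2 scale, by the interaction term. That size depends on the single WT uninjured count. Cnr1 was listed in WT only through the LPS libraries, so no test is given for it. After SCI, Ntsr2 was at a log2 difference of -0.98 and S1pr1 of -1.01 from LPS in Smarca4cKO. Those 2 differences were tested directly, since both challenges share their uninjured libraries.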

How the results depend on the processing

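Of the fold changes named in the text, direction and call were kept in 94 of 94 with no filter, 88 of 90 with DESeq2, 90 of 94 with relative log expression factors, 86 of 94 with library totals only, 66 of 79 in 1 fit of all 25 libraries, 648 of 781 leaving out 1 library and 72 of 94 without the lowest-detection library of each group (added after the data were seen). Members past the threshold were 7 in WT LPS (4 with all 25 libraries, 1 to 5 leaving out 1 library), 4 in Stat3cKO LPS (2 with all 25, 2 without low detection, 3 to 5 leaving out 1), 0 in Smarca4cKO LPS (1 with DESeq2, 1 with all 25) and 6 in SCI (3 with all 25, 5 to 6 leaving out 1). These counts include members listed only through the group where they are high: Cnr1 and Galr3 in WT LPS, Htr5b in Stat3cKO LPS and Galr3 in SCI. Nothing is read from the calls of these members, nor from that of Cnr1 in Stat3cKO minus WT. The 7 in WT LPS also include Ntsr2 and Aplnr, which had been singled out in that comparison. Nothing is read from their calls there or in comparisons with WT. All these calls also enter the totals of fold changes kept. Only 6 members enter the fit of all 25. For Stat3cKO minus WT there was 1 (0 with DESeq2, which gave Cnr1 no adjusted p, 0 with all 25, 0 without low detection, 0 to 1 leaving out 1), for SCI against LPS 2 (0 without low detection, 1 to 3 leaving out 1) and for Smarca4cKO against WT uninjured 0 (1 with DESeq2). The causes were not tested.

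No called change reversed. Without low detection, uncalled values turned to -1.57 (S1pr3, Stat3cKO minus WT), 0.16 (Ednrb, Smarca4cKO minus WT) and 0.88 (S1pr3, uninjured Smarca4cKO against WT); with totals only the last comparison gave 0.0556 for Ntsr2 and 0.0430 for Ednrb. Leaving out 1 library gave ranges across 0 for Ntsr2 (-0.43 to 0.0014) and Lpar1 (-3.54 to 0.16) in Smarca4cKO LPS, for Aplnr (-0.45 to 1.24), S1pr3 (-0.83 to 0.62) and Ednrb (-0.24 to 0.0161) in Stat3cKO minus WT, for S1pr3 (-0.29 to 1.83), Lpar1 (-1.51 to 2.19) and Ednrb (-0.25 to 0.11) in Smarca4cKO minus WT, and for Ntsr2 (-0.21 to 0.0008) and S1pr3 (-1.47 to 0.30) in uninjured Smarca4cKO against WT.

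Calls over all genes moved by over 1.5 times in WT LPS (268; DESeq2 613; 29 to 217 leaving out 1 library), Stat3cKO LPS (1237; 356 with all 25; 573 without low detection; 657 to 1275 leaving out 1 library), Smarca4cKO LPS (2; DESeq2 288; 278 with all 25; 2 to 5), SCI (1606; 768 with all 25), Stat3cKO minus WT (39; DESeq2 163; 1 with all 25; 14 to 119), Smarca4cKO minus WT (25; DESeq2 100; 73 with all 25; 14 to 367), SCI against LPS (301; DESeq2 722; 654 with all 25; 84 without low detection; 159 to 763), and uninjured Stat3cKO (8; DESeq2 82; 2 without low detection; 1 to 13) and Smarca4cKO (1; DESeq2 588; 176 with all 25; 0 to 5) against WT. The 119 came without WT LPS library 3. Without Smarca4cKO LPS library 3 came the 367 (316 lower) and the 763, of which 65% were higher against 37.2% with it. In SCI 44.9% of calls were higher with all 25, against 70.2%. Totals only moved the share of higher calls from 60.8% to 73.5% in WT LPS, from 79.5% to 65% in Stat3cKO minus WT and to 51% in SCI against LPS, and the median of all genes to -0.12 in Smarca4cKO LPS, 0.14 in SCI and 0.20 in uninjured Smarca4cKO against WT. No paired analysis was possible because each title holds only an animal's number, which joins no libraries across groups. Receptors at a few counts (Cnr1, Htr5b, Galr3) have folds limited by counting.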
